A study of Mus musculus with 9 samples.

Results

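The 10 genes described here encode vasoactive peptides, their receptors and the enzymes that make nitric oxide, angiotensin and prostacyclin. They are Nos3, Edn1, Ednra, Ednrb, Ace, Agt, Agtr1a, Agtr2, Ptgis and Ptgs2, chosen by name as 10 of the 54532 genes of a table of read counts. The rule uses no measured value, but the list was drawn up with earlier results of these data known. The study isolated adipose-derived stem cells (ASCs) from adipose tissue of C57BL/6 mice by enzyme digestion and expanded them in a stem cell culture medium before bulk mRNA sequencing. The 3 groups were cells from perivascular fat (PVASC), from abdominal fat (Ab-ASC) and from subcutaneous fat (Sub-ASC), with 3 libraries each. No allele, drug or other treatment was named for any group, the age of the mice is not given in the sources used here, and which abdominal depot or vessel was sampled is not given in the labels. The labels do not say whether the 3 libraries of a group came from separate mice or separate cultures, so p-values measure the spread between these libraries, which may be technical.

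Vascular tone is set by short-range signals that pass between endothelium, smooth muscle and the surrounding fat. Endothelin-1 and angiotensin II constrict smooth muscle through G protein-coupled receptors, whereas nitric oxide and prostacyclin relax it by raising cyclic GMP and cyclic AMP. Angiotensin II is cut from angiotensinogen by renin and then by angiotensin-converting enzyme, and prostacyclin is made from arachidonic acid by a cyclooxygenase followed by prostacyclin synthase. Perivascular adipose tissue is known to release both relaxing and constricting factors toward the vessel wall.

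All 10 genes had enough reads to be tested, among 16526 genes tested in all. Library totals ranged from 20524173 to 29881036 reads. Levels are given as CPM, reads scaled to the TMM-adjusted library total, and, where genes are compared with each other, as FPKM, which also divides by gene length. A floor of 3 reads per library equalled 0.0917 to 0.161 CPM, which covers counting error only. A log2 fold change is given with its SE and the adjusted p of edgeR's quasi-likelihood test, and a gene is called higher or lower at an adjusted p under 0.05. The markers by which such stem cells are usually recognised, Ly6a (Sca-1), Thy1 (CD90), Eng (CD105), Pdgfra, Pdgfrb and Cd44, were present in every group, with summed levels of 5991 to 6040 CPM in Sub-ASCs, 1860 to 1972 CPM in Ab-ASCs and 2451 to 2546 CPM in PVASCs. The Sub-ASC sum is carried by Ly6a and Pdgfra, while Thy1, Eng and Cd44 were called higher in PVASCs than in Sub-ASCs. Ly6a averaged 2049 CPM in Sub-ASCs, 21.8 CPM in Ab-ASCs and 111 CPM in PVASCs. Of the 6 markers, 2 were called higher and 4 lower in Ab-ASCs than in Sub-ASCs. Ptprc (CD45), which marks blood cells, had mean levels of 8.94, 1.41 and 2.81 CPM in Sub-ASCs, Ab-ASCs and PVASCs.

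The 3 kinds of ASCs differed in the levels of these genes, and each kind held the highest level of some of them. Apart from Agtr2 in Ab-ASCs, every one of these genes had reads in every library. Sub-ASCs held the highest Ace, at 2207 CPM, Agt, Agtr1a and Ednrb. PVASCs held the highest Edn1, Nos3 and Agtr2. Ab-ASCs held the highest Ptgs2 and Ptgis, and the lowest Nos3, Ednra, Ace and Agtr2.

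Against Sub-ASCs, 9 of the 10 genes were called in PVASCs, 4 higher and 5 lower, where 70.4% of all tested genes were called (34.7% higher and 35.7% lower). Against Ab-ASCs, 7 were called in PVASCs, 5 higher and 2 lower, where 56.9% of all genes were called (24.7% higher and 32.1% lower). Between Ab-ASCs and Sub-ASCs all 10 were called, 3 higher and 7 lower in Ab-ASCs, where 75.3% of all genes were called (37.0% higher and 38.3% lower). All 10 differed among the 3 groups, as did 84.6% of all genes tested, and 6 were called in all 3 pairs of groups, beside 35.5% of all genes. The members were chosen by name and no test of the set was made.

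The sizes are given beside those of all genes tested. With a log2 fold change of at least 1 in either direction, 7 of the 10 genes were called in each comparison, where this held for 32.2% of all genes in PVASCs against Sub-ASCs, 15.4% in PVASCs against Ab-ASCs and 37.8% in Ab-ASCs against Sub-ASCs. The median absolute log2 fold changes of the members were 2.65, 1.21 and 3.64 in that order, beside medians of 0.587, 0.381 and 0.750 over all genes. The signed medians were -0.34, 0.65 and -2.46, beside -0.01, -0.06 and -0.03 over all genes. Library ranges did not overlap for 10, 7 and 10 members in the same order, where this held for 77.3%, 63.9% and 76.5% of all genes. The comparisons share libraries pairwise and are not independent.

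**Figure D1:**
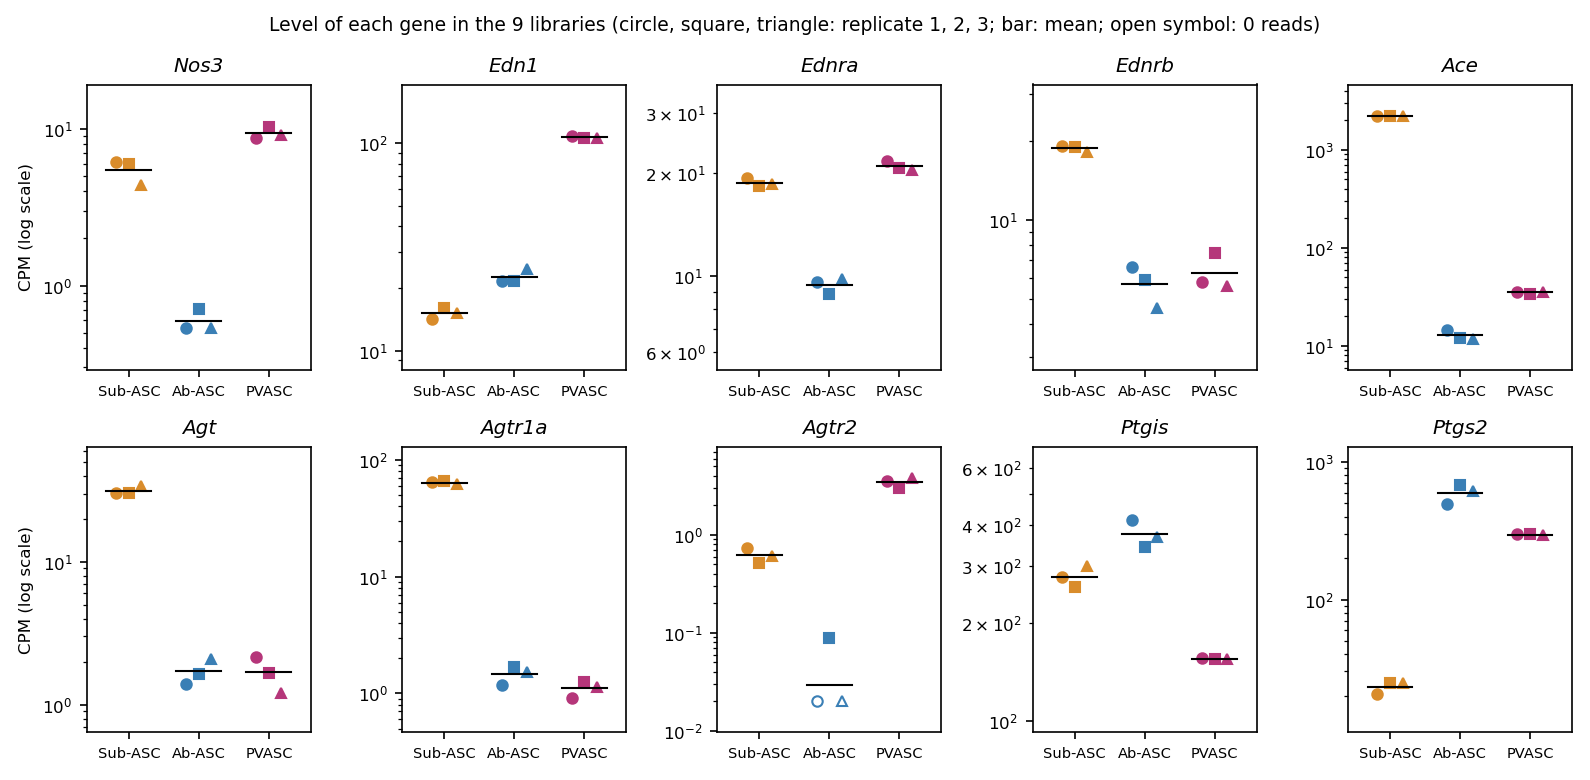
Level of each of the 10 genes in each of the 9 libraries, in CPM on a log axis, with a point for each library and a bar at the mean of 3. Open symbols placed at the bottom of the axis are libraries with 0 reads, which occurred for Agtr2 in 2 Ab-ASC libraries. Sub-ASC libraries stand alone at the top for Ace, Agt and Agtr1a, and PVASC libraries stand at the top for Edn1, Nos3 and Agtr2.

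The promoter regions of the genes with the most distinct patterns are shown so that the sequence lies beside the measurement. Each is the 250 bases before the RefSeq start on GRCm38.p6, written 5′ to 3′ on the strand of the gene, with matches to searched motifs in capitals. Windows were available for 7 of the 10 genes and not for Nos3, Agtr1a and Ptgis. Ace and Agt are shown because both were highest in Sub-ASCs, Edn1 because it was highest in PVASCs, and Ptgs2 because it was highest in Ab-ASCs. Of 2 Ace windows in the table, the one at the start of the gene is shown, and the other, downstream at chr11:105974939-105975188, held none of the searched motifs. The Ace window printed is chr11:105967698-105967947 on the plus strand, Agt is chr8:124569707-124569956 on the minus strand, Edn1 is chr13:42301226-42301475 on the plus strand and Ptgs2 is chr1:150099781-150100030 on the plus strand.
Ace: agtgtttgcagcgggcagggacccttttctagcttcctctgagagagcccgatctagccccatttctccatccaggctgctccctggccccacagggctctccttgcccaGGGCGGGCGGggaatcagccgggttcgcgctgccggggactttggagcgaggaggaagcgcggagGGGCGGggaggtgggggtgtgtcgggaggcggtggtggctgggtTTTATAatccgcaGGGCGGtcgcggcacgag
Agt: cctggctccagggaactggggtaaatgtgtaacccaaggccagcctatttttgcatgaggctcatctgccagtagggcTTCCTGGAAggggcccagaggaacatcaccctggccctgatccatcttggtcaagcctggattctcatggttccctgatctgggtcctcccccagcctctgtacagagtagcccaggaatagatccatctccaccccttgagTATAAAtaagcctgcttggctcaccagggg
Edn1: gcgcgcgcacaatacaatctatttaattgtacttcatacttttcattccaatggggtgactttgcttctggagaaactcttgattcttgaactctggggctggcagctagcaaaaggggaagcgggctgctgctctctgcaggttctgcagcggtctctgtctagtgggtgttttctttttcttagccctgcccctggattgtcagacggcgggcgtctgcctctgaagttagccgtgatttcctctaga
Ptgs2: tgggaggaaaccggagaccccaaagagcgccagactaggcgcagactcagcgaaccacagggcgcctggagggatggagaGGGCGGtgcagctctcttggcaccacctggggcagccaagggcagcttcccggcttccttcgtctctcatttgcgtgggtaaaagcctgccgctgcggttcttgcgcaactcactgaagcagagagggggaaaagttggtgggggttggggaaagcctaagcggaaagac

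Both strands were searched for TATAAA (core promoter box), GGGCGG (GC box), TGACGT (cyclic AMP response element core), TGANTCA (AP-1), CACGTG (E-box), AGATAA (site of a zinc finger family), TTCNNNGAA (interferon gamma activated site) and GGGNNTTCC (kappa B). In the Agt window, TATAAA lay 30 to 25 bases before the start and a TTCNNNGAA match lay 172 to 164 bases before it. The Ace window held TATAAA on the minus strand, printed as TTTATA, 31 to 26 bases before the start, and 4 GC boxes, the 2 farthest of which overlap each other. Ptgs2 had 1 GC box, 170 to 165 bases before its start, and none of the 8 motifs was found in the Edn1 window. Of 32851 windows of the same length, 12.4% hold TATAAA, 32.7% hold GGGCGG and 7.02% hold TTCNNNGAA. The other motifs occur in 6.47% (TGACGT), 6.75% (TGANTCA), 6.02% (CACGTG), 9.99% (AGATAA) and 4.98% (GGGNNTTCC) of them. Such matches are letters in a window and not evidence of binding. GC content was 67.2% for Ace, 61.6% for Ptgs2, 55.6% for Agt and 50.4% for Edn1.

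Nos3 encodes endothelial nitric oxide synthase, the enzyme that gives the endothelium its relaxing signal (ENSMUSG00000028978, chromosome 5, 24364810 to 24384474, plus strand, GRCm38). The 3 Sub-ASC libraries had 6.14, 6.01 and 4.39 CPM, the Ab-ASC libraries 0.537, 0.711 and 0.535 CPM and the PVASC libraries 8.71, 10.4 and 9.22 CPM. The groups did not overlap, and every PVASC library lay above every other library. Mean levels were 9.44 ± 0.850 CPM in PVASCs, 5.51 ± 0.978 CPM in Sub-ASCs and 0.594 ± 0.101 CPM in Ab-ASCs (SD, n = 3). PVASCs were 1.71-fold above Sub-ASCs, a log2 fold change of 0.78 (SE 0.13, edgeR adjusted p = 0.000224), and 15.9-fold above Ab-ASCs, a log2 fold change of 3.97 (SE 0.20, edgeR adjusted p = 1.09e-08). Ab-ASCs were 9.27-fold below Sub-ASCs, at -3.19 (SE 0.22, edgeR adjusted p = 4.04e-08). Even in PVASCs the level was low per length, at 2.28 FPKM, and 41.5% of tested genes lay below it.

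Endothelial markers were ordered in the same way among the groups. The summed level of 12 such genes, among them Pecam1 (CD31), Cdh5 (VE-cadherin) and Emcn, was 931 to 935 CPM in PVASCs, 234 to 249 CPM in Sub-ASCs and 82.1 to 84.1 CPM in Ab-ASCs, and no marker was at 0 in any group. Of the 12, 10 were higher and 2 lower in PVASCs than in Sub-ASCs, and 11 were higher in PVASCs than in Ab-ASCs. Pecam1 alone averaged 180 CPM in PVASCs, 45.3 CPM in Sub-ASCs and 12.5 CPM in Ab-ASCs. Edn1 did not share this order, at 107 CPM in PVASCs, 22.7 CPM in Ab-ASCs and 15.2 CPM in Sub-ASCs. The part of endothelial cells or transcripts in the Nos3 and Edn1 results was not tested. In bulk samples fewer cells of a type and less RNA per cell cannot be told apart.

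The other nitric oxide synthases did not follow Nos3. Nos2, the inducible enzyme known from activated immune cells, had 5232, 6292 and 6090 reads in Sub-ASCs, 16, 19 and 8 reads in Ab-ASCs and 6, 14 and 0 reads in PVASCs. It was thus the most abundant synthase of Sub-ASCs by far, at 53.2 FPKM against 1.33 FPKM for Nos3. Its log2 fold change was -10.07 in PVASCs (SE 0.27, edgeR adjusted p = 5.25e-12) and -8.43 in Ab-ASCs (SE 0.25, edgeR adjusted p = 1.12e-11), both against Sub-ASCs. Nos1, the neuronal enzyme, was highest in Ab-ASCs with 54, 62 and 63 reads and had at most 8 reads in any other library. Each synthase thus had its highest level in a different group, Nos2 in Sub-ASCs, Nos1 in Ab-ASCs and Nos3 in PVASCs.

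Of 19 genes of nitric oxide and cyclic GMP besides Nos3, 15 were called in PVASCs against Sub-ASCs (6 higher and 9 lower). The same numbers were called in PVASCs when set against Ab-ASCs, and in the comparison of Ab-ASCs to Sub-ASCs 8 were higher and 8 lower. In this order 78.9%, 78.9% and 84.2% of the list were called, beside 70.4%, 56.9% and 75.3% of all genes tested. Ass1, which recycles citrulline toward arginine, the substrate of the synthases, was highest in Ab-ASCs at 268 FPKM, beside 82.5 FPKM in PVASCs and 22.6 FPKM in Sub-ASCs. Ddah1, which degrades a natural synthase inhibitor, was at 63.7 FPKM in Ab-ASCs and 51.2 FPKM in PVASCs, with a log2 fold change of 2.22 (SE 0.06) in PVASCs against Sub-ASCs. Cav1, which encodes the caveolin that holds Nos3 inactive, was highest in PVASCs at 66.5 FPKM, with log2 fold changes of 0.54 against Sub-ASCs and 1.01 against Ab-ASCs (edgeR adjusted p = 0.000715 and 1.02e-05).

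The receptor side of nitric oxide is soluble guanylate cyclase, a pair of an alpha and a beta subunit. Gucy1a1 was highest in Sub-ASCs at 2.16 FPKM, with 0.198 FPKM in Ab-ASCs and 0.132 FPKM in PVASCs. Gucy1a2, the other alpha subunit, had the opposite order, at 0.0949 FPKM in Sub-ASCs, 0.602 FPKM in Ab-ASCs and 0.879 FPKM in PVASCs. Both differences from Sub-ASCs passed the test in PVASCs, at -4.01 (SE 0.20) for Gucy1a1 and 3.18 (SE 0.32) for Gucy1a2. The beta subunit Gucy1b1 varied less, at 2.40, 1.11 and 1.54 FPKM in Sub-ASCs, Ab-ASCs and PVASCs.

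Edn1 encodes the precursor of endothelin-1, the constrictor peptide of endothelial cells (ENSMUSG00000021367, chromosome 13, 42301476 to 42307990, plus strand). Its levels were 14.3, 16.1 and 15.3 CPM in Sub-ASCs, 21.7, 21.7 and 24.8 CPM in Ab-ASCs and 109, 107 and 107 CPM in PVASCs. The PVASC libraries lay close together and far above the rest, and the Ab-ASC libraries all lay above the Sub-ASC libraries. PVASCs exceeded Sub-ASCs 7.05-fold (log2 fold change 2.82, SE 0.07, edgeR adjusted p = 3.38e-12). They exceeded Ab-ASCs 4.72-fold (log2 fold change 2.24, SE 0.07, edgeR adjusted p = 1.59e-10). Ab-ASCs exceeded Sub-ASCs by a smaller step of 1.49-fold (log2 fold change 0.58, SE 0.07, edgeR adjusted p = 1.49e-05). By FPKM, 94.6% of tested genes lay below Edn1 in PVASCs. The promoter window of Edn1 printed above held no match to any searched motif, and neither did those of Ednra and Agtr2, which are not printed.

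Ednra and Ednrb encode the endothelin receptors ETA, which constricts on smooth muscle, and ETB, which on endothelium clears the peptide and releases nitric oxide (ENSMUSG00000031616, chromosome 8, 77663031 to 77724464, and ENSMUSG00000022122, chromosome 14, 103814625 to 103844402, both minus strand). For Ednra the libraries had 19.3, 18.4 and 18.6 CPM in Sub-ASCs, 9.61, 8.89 and 9.81 CPM in Ab-ASCs and 21.7, 20.7 and 20.4 CPM in PVASCs. Ab-ASCs were low, and Sub-ASCs and PVASCs lay close together without overlap. The PVASC level was 2.22-fold that of Ab-ASCs (log2 fold change 1.15, SE 0.08, edgeR adjusted p = 1.14e-07). Ab-ASCs were 1.99-fold below Sub-ASCs (log2 fold change -0.99, SE 0.08, edgeR adjusted p = 1.41e-07). The difference between PVASCs and Sub-ASCs was 0.16 (SE 0.07) and did not pass the test, with an edgeR adjusted p of 0.0591 that fell below the threshold under 4 of the alternatives tried.

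Ednrb had another order. Its levels were 19.1, 19.0 and 18.1 CPM in Sub-ASCs, 6.60, 5.91 and 4.59 CPM in Ab-ASCs and 5.78, 7.46 and 5.60 CPM in PVASCs. Sub-ASC libraries were high, and the ranges of Ab-ASCs and PVASCs overlapped. PVASCs were 2.98-fold below Sub-ASCs (log2 fold change -1.58, SE 0.13, edgeR adjusted p = 2.45e-07), and Ab-ASCs were 3.28-fold below them (log2 fold change -1.72, SE 0.14, edgeR adjusted p = 1.74e-07). PVASCs and Ab-ASCs differed by 0.14 (SE 0.15, edgeR adjusted p = 0.426), within the spread between libraries. The balance of both receptors, as the ratio of Ednra to Ednrb in FPKM within a library, was 0.753 to 0.799 in Sub-ASCs, 1.13 to 1.66 in Ab-ASCs and 2.16 to 2.92 in PVASCs. Thus ETB mRNA exceeded ETA mRNA in every Sub-ASC library, and ETA mRNA exceeded ETB mRNA in every library of the other groups.

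Of the other 6 endothelin genes, 3 could be tested. Ece1, which cleaves the precursor to the active peptide, was at 42.9 FPKM in PVASCs, 38.8 FPKM in Sub-ASCs and 27.3 FPKM in Ab-ASCs. It differed between PVASCs and Sub-ASCs by only 0.15 (SE 0.05, edgeR adjusted p = 0.0194). The ratio of Edn1 to Ece1 was 0.165 to 0.202 in Sub-ASCs, 0.364 to 0.429 in Ab-ASCs and 1.13 to 1.2 in PVASCs. Ece2, a related protease, was at most 0.239 FPKM, its mean in PVASCs, which was above that of Sub-ASCs by a log2 fold change of 1.47 (SE 0.29) and that of Ab-ASCs by 0.73 (SE 0.27). Mme, the neprilysin that degrades endothelins and natriuretic peptides, was at 13.1 FPKM in Sub-ASCs, 0.329 FPKM in PVASCs and 0.0438 FPKM in Ab-ASCs. Its log2 fold change from Sub-ASCs was -5.32 (SE 0.13, edgeR adjusted p = 1.9e-12) in PVASCs and -8.18 (SE 0.17, edgeR adjusted p = 6.47e-13) in Ab-ASCs. The paralogs of Edn1 lay at or under the floor of 3 reads, since Edn2 had at most 3 reads in any library, and Edn3 had 0 reads in all 9 libraries. Kel, a protease that processes endothelins, also had 0 reads throughout.

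**Figure D2:**
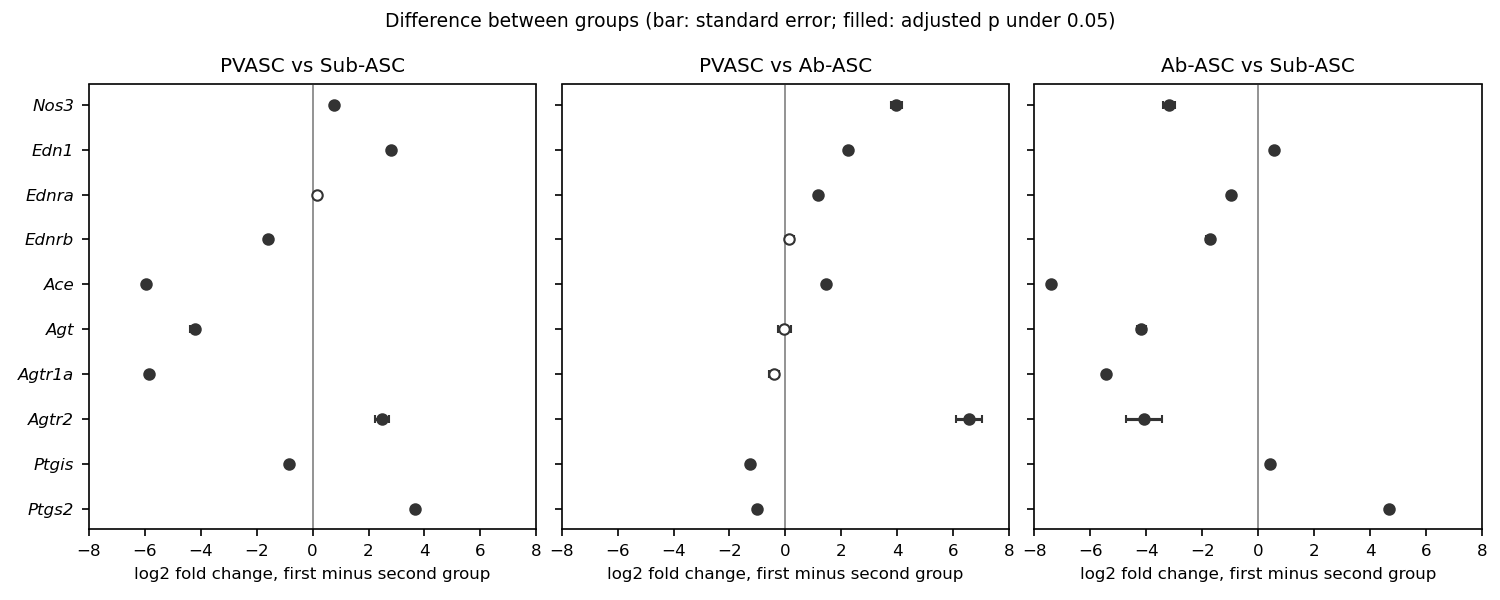
Log2 fold change of each of the 10 genes in the 3 pairs of groups, with bars of 1 SE, where positive values mean higher in the group named first. Filled points passed an adjusted p of 0.05 in edgeR's test. Ace, Agt and Agtr1a lie far to the left in both comparisons against Sub-ASCs, and the open points are Ednra for PVASCs against Sub-ASCs and Ednrb, Agt and Agtr1a for PVASCs against Ab-ASCs.

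Ace encodes angiotensin-converting enzyme, which makes angiotensin II and degrades bradykinin (ENSMUSG00000020681, chromosome 11, 105967945 to 105989964, plus strand). Its levels were 2189, 2208 and 2224 CPM in Sub-ASCs, 14.7, 12.2 and 11.8 CPM in Ab-ASCs and 35.9, 34.1 and 35.8 CPM in PVASCs. In reads, Sub-ASC libraries had 50981, 56171 and 58325, whereas no other library had more than 1173. Ace was 62.6-fold lower in PVASCs than in Sub-ASCs (log2 fold change -5.97, SE 0.08, edgeR adjusted p = 1.91e-14). In Ab-ASCs it was 171-fold lower (log2 fold change -7.43, SE 0.08, edgeR adjusted p = 8.52e-15). PVASCs stood 2.74-fold above Ab-ASCs (log2 fold change 1.46, SE 0.07, edgeR adjusted p = 8.57e-09). At 417 FPKM, Ace ranked 92 among 16526 genes in Sub-ASCs, with 99.4% of genes below it. Its rank was 5951 in PVASCs and 9234 in Ab-ASCs. The 2 differences from Sub-ASCs were the largest among the 10 genes that do not rest on a group near 0 reads.

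Agt encodes angiotensinogen, the precursor that liver and adipose tissue secrete (ENSMUSG00000031980, chromosome 8, 124556534 to 124569706, minus strand). Levels were 30.3, 30.4 and 33.7 CPM in Sub-ASCs, 1.40, 1.64 and 2.10 CPM in Ab-ASCs and 2.17, 1.66 and 1.21 CPM in PVASCs. Sub-ASCs stood apart, and the other groups overlapped. Agt was 18.7-fold lower in PVASCs (log2 fold change -4.22, SE 0.16, edgeR adjusted p = 1.09e-10) and 18.4-fold lower in Ab-ASCs (log2 fold change -4.18, SE 0.17, edgeR adjusted p = 2.08e-10) than in Sub-ASCs. PVASCs and Ab-ASCs differed by -0.04 (SE 0.22, edgeR adjusted p = 0.908), a value whose sign depended on the setting.

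The adipocyte marker list was also highest in Sub-ASCs as a sum, almost all of it Plin1. The summed level of Adipoq, Plin1, Cidec and Lep was 18.4 to 20.8 CPM in Sub-ASCs, 0.0892 to 0.178 CPM in Ab-ASCs and 0.367 to 0.644 CPM in PVASCs, and none of the 4 had more than 3 reads in any Ab-ASC library. Lep was at 0 reads in every library, and Cidec had 1, 2 and 0 reads in Sub-ASCs and 1, 7 and 2 reads in PVASCs. The part of adipocyte transcripts in the Agt result was not tested.

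Agtr1a encodes the main constrictor receptor of angiotensin II in rodents, AT1a (ENSMUSG00000049115, chromosome 13, 30336441 to 30382867, plus strand). It had 64.5, 65.4 and 61.5 CPM in Sub-ASCs, 1.18, 1.69 and 1.52 CPM in Ab-ASCs and 0.917, 1.25 and 1.15 CPM in PVASCs. As with Agt, Sub-ASCs were high and the low groups overlapped. PVASCs were 57.7-fold below Sub-ASCs (log2 fold change -5.85, SE 0.11, edgeR adjusted p = 2.47e-13), and Ab-ASCs were 43.7-fold below them (log2 fold change -5.43, SE 0.11, edgeR adjusted p = 5.24e-13). The difference between PVASCs and Ab-ASCs, -0.42 (SE 0.18, edgeR adjusted p = 0.0649), did not pass the test. Without Ab-ASC replicate 1 it was -0.54 (edgeR adjusted p = 0.0304) and without PVASC replicate 2 it was -0.52 (edgeR adjusted p = 0.0466).

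Agtr2 encodes AT2, the receptor that in many settings opposes AT1 (ENSMUSG00000068122, chromosome X, 21484544 to 21489164, plus strand). It was the least abundant of the 10 genes in Sub-ASCs and Ab-ASCs. Sub-ASC libraries had 17, 13 and 16 reads, Ab-ASC libraries 0, 2 and 0 reads and PVASC libraries 115, 89 and 120 reads. The PVASC libraries were all higher than the others, at 3.52, 3.02 and 3.82 CPM. They exceeded Sub-ASCs 5.59-fold (log2 fold change 2.48, SE 0.26, edgeR adjusted p = 2.31e-06). Against Ab-ASCs the ratio, scaled for depth, was 110 with a 95% exact interval of 30.2 to 912 that covers counting error only (edgeR adjusted p = 1.89e-07). The ratio of Ab-ASCs to Sub-ASCs was 0.0513, with an interval of 0.00603 to 0.196 (edgeR adjusted p = 9.67e-05). Both ratios rest on 2 reads in Ab-ASC replicate 2. Without that library no Ab-ASC read was left, and the fitted log2 fold changes moved from 6.57 to 9.50 and from -4.09 to -7.02, values that then depend on the prior count.

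The receptors of angiotensin II thus peaked in different groups, and both were lower in Ab-ASCs than in Sub-ASCs. The ratio of Agtr1a to Agtr2 in FPKM was 106 to 153 in Sub-ASC libraries and 0.311 to 0.496 in PVASC libraries. It was 22.7 in Ab-ASC replicate 2, and the other Ab-ASC libraries had 0 Agtr2 reads. In PVASCs the mean levels were 0.397 FPKM for Agtr1a and 1.04 FPKM for Agtr2, both low. Agtr1b, the second AT1 receptor of rodents, had 61, 65 and 66 reads in PVASCs, 0, 0 and 3 reads in Ab-ASCs and 0 reads in each Sub-ASC library. PVASCs stood at least 17.1-fold higher than Sub-ASCs, computed against 3 reads in each library, and its mean in PVASCs was 0.957 FPKM. Agtr1a and Agtr1b are close paralogs, so reads shared between them make both values uncertain, although Sub-ASC libraries with 1503 to 1664 Agtr1a reads had none on Agtr1b.

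The enzyme that starts the system had too few reads to be tested, since Ren1 (renin) had at most 1 read in any library. The sequence from renin to angiotensin II was therefore seen only in part. Agt and Ace lay above the floor in every library and were highest in Sub-ASCs, and renin mRNA lay under the floor in every library.

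Of 17 other renin-angiotensin genes 14 were tested, and 12 were called in PVASCs against Sub-ASCs (5 higher, 7 lower). Set against Ab-ASCs, 3 were higher and 7 lower in PVASCs, and in the comparison of Ab-ASCs to Sub-ASCs 4 were higher and 7 lower. The shares of tested genes called were 85.7%, 71.4% and 78.6%, beside 70.4%, 56.9% and 75.3% of all genes. Anpep and Enpep, aminopeptidases that trim angiotensins, were highest in Sub-ASCs at 71.0 and 15.8 FPKM. In PVASCs they were at 3.27 and 1.14 FPKM, log2 fold changes of -4.44 (SE 0.08) and -3.80 (SE 0.09) from Sub-ASCs. Agtrap, which binds the AT1 receptor and was chosen after its values were seen, was at 39.7 FPKM in Sub-ASCs, 10.8 FPKM in Ab-ASCs and 8.43 FPKM in PVASCs. In the other direction, the peptidases Prep and Thop1 were higher in both Ab-ASCs (1.22 and 1.23) and PVASCs (0.95 and 0.78) than in Sub-ASCs on the log2 scale.

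Cma1 and Ctsg encode chymase and cathepsin G, proteases that can form angiotensin II without Ace and that are stored in mast cells and neutrophils. Cma1 had 956, 996 and 1106 reads in Sub-ASCs, 1, 0 and 2 reads in Ab-ASCs and 0 reads in each PVASC library, so that Sub-ASCs stood at least 424-fold higher than PVASCs. The call of Cma1 as lower in PVASCs than in Ab-ASCs rests on those 3 reads, at the floor. Ctsg had 42, 24 and 34 reads in Sub-ASCs and 0 reads elsewhere. A list of 6 mast cell markers chosen after the data were seen (Kit, Cpa3, Mcpt4, Tpsb2, Fcer1a and Ms4a2) had summed levels of 92.3 to 102 CPM in Sub-ASCs, 1.11 to 1.96 CPM in Ab-ASCs and 5.86 to 7.21 CPM in PVASCs. The PVASC sum is almost all Kit, and Mcpt4 and Tpsb2 were called lower in PVASCs than in Ab-ASCs, against the order of the sums, on at most 9 reads a group. Fcer1a was at 0 in Ab-ASCs, and Mcpt4 and Fcer1a were at 0 in PVASCs. The part of such cells in the results for Cma1, Ctsg and Ace was not tested.

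Ptgs2 encodes the inducible cyclooxygenase COX-2 (ENSMUSG00000032487, chromosome 1, 150100031 to 150108227, plus strand). Levels were 20.6, 24.8 and 24.6 CPM in Sub-ASCs, 497, 678 and 611 CPM in Ab-ASCs and 299, 299 and 293 CPM in PVASCs. The groups did not overlap, and the Ab-ASC libraries were both the highest and the most spread, with an SD of 91.5 CPM around a mean of 595 CPM. Ab-ASCs were 25.5-fold above Sub-ASCs (log2 fold change 4.67, SE 0.12, edgeR adjusted p = 2.56e-12). PVASCs were 12.7-fold above Sub-ASCs (log2 fold change 3.67, SE 0.11, edgeR adjusted p = 1.73e-11) and 2.0-fold below Ab-ASCs (log2 fold change -1.0, SE 0.10, edgeR adjusted p = 4.08e-06). Smooth muscle markers, led by Acta2, shared this order, with summed levels of 4653 to 5745 CPM in Ab-ASCs, 2816 to 2961 CPM in PVASCs and 93.0 to 98.2 CPM in Sub-ASCs. So did mesothelial markers, at 126 to 135, 49.8 to 51.5 and 2.75 to 2.97 CPM, of which Upk1b and Lrrn4 were at 0 in Sub-ASCs, although single markers differed from the sum, as Krt19 was higher in PVASCs than in Ab-ASCs and Krt8 was not called between PVASCs and Sub-ASCs. Their part in the Ptgs2 result was not tested.

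Ptgis encodes prostacyclin synthase, which turns the cyclooxygenase product into prostacyclin (ENSMUSG00000017969, chromosome 2, 167191805 to 167240604, minus strand). Its levels were 278, 257 and 299 CPM in Sub-ASCs, 415, 342 and 369 CPM in Ab-ASCs and 156, 155 and 155 CPM in PVASCs. PVASC libraries were the lowest and nearly equal, and Ab-ASC libraries were the highest. PVASCs were 1.79-fold below Sub-ASCs (log2 fold change -0.84, SE 0.07, edgeR adjusted p = 4.98e-07) and 2.42-fold below Ab-ASCs (log2 fold change -1.27, SE 0.07, edgeR adjusted p = 3.79e-08). Ab-ASCs were 1.35-fold above Sub-ASCs (log2 fold change 0.43, SE 0.07, edgeR adjusted p = 0.000167). Ptgis was abundant in every group, at 108 FPKM in Sub-ASCs, 146 FPKM in Ab-ASCs and 60.5 FPKM in PVASCs, and at least 95.6% of tested genes lay below it in each. Its range across groups was the narrowest of the 10 genes apart from Ednra.

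Of 22 other prostanoid genes 19 were tested, and 16 were called in PVASCs against Sub-ASCs (8 higher, 8 lower). Set against Ab-ASCs, 4 were higher and 10 lower in PVASCs, and in the comparison of Ab-ASCs to Sub-ASCs 9 were higher and 5 lower. The shares of tested genes called were 84.2%, 73.7% and 73.7%, beside 70.4%, 56.9% and 75.3% of all genes. Ptgs1, the constitutive cyclooxygenase COX-1, was at 57.8 FPKM in Ab-ASCs, 53.7 FPKM in PVASCs and 6.69 FPKM in Sub-ASCs. Its log2 fold change from Sub-ASCs was 3.11 (SE 0.06) in Ab-ASCs and 3.01 (SE 0.06) in PVASCs, and both passed the test. PVASCs and Ab-ASCs differed by -0.10 (SE 0.05, edgeR adjusted p = 0.127). The ratio of Ptgs2 to Ptgs1 in FPKM was 0.654 to 0.843 in Sub-ASCs, 1.76 to 2.66 in Ab-ASCs and 1.19 to 1.22 in PVASCs. Pla2g4a, which frees arachidonic acid from membranes, was highest in PVASCs at 14.5 FPKM, with 8.54 FPKM in Sub-ASCs and 8.89 FPKM in Ab-ASCs. That Ab-ASC mean included a low library, with 5.92, 10.7 and 10.1 FPKM in replicates 1, 2 and 3.

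Like Ptgis, Ptges was lowest in PVASCs. Ptges, the inducible prostaglandin E synthase, had 61.6 FPKM in Sub-ASCs, 47.8 FPKM in Ab-ASCs and 18.8 FPKM in PVASCs, a log2 fold change of -1.71 (SE 0.07, edgeR adjusted p = 3.35e-10) in PVASCs against Sub-ASCs. The ratio of Ptgis to Ptges was 1.61 to 1.92 in Sub-ASCs, 3.01 to 3.12 in Ab-ASCs and 3.10 to 3.37 in PVASCs. Ptgis mRNA thus exceeded Ptges mRNA in all 9 libraries, and the ranges of this ratio in Ab-ASCs and PVASCs overlapped. It did not exceed that of every prostaglandin E synthase. Ptges3, another of them, was at 66.6 FPKM in PVASC replicate 1, where Ptgis was at 60.8 FPKM. For clearance, Hpgd, which inactivates prostaglandins, was at 4.18 FPKM in Sub-ASCs, 0.775 FPKM in Ab-ASCs and 0.0826 FPKM in PVASCs. Slco2a1, the transporter that takes prostaglandins into cells, had the opposite order, at 5.53, 17.5 and 26.8 FPKM.

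Among the receptors, Ptgir, which binds prostacyclin, was at 17.0 FPKM in Sub-ASCs, 18.5 FPKM in Ab-ASCs and 9.91 FPKM in PVASCs. PVASCs were lower than Sub-ASCs by a log2 fold change of -0.78 (SE 0.06, edgeR adjusted p = 8.81e-08) and lower than Ab-ASCs by -0.90 (SE 0.06, edgeR adjusted p = 8.69e-08), while Ab-ASCs and Sub-ASCs differed by 0.12 (SE 0.06, edgeR adjusted p = 0.0707). Ligand synthase and receptor were therefore both lowest in PVASCs. Ppard, a nuclear receptor that prostacyclin can activate, fell in the same direction, at 10.2, 7.49 and 5.48 FPKM in Sub-ASCs, Ab-ASCs and PVASCs. The prostaglandin E receptors were mostly scarce, with Ptger1, Ptger2 and Ptger3 all at most 0.384 FPKM in any group. Ptger4, which raises cyclic AMP, was at 1.15, 4.44 and 2.91 FPKM in Sub-ASCs, Ab-ASCs and PVASCs. Tbxa2r, the constrictor receptor for thromboxane, had the same order at 0.992, 4.31 and 3.18 FPKM, and Ptgfr, the receptor for prostaglandin F2 alpha, had its peak in Sub-ASCs at 4.99 FPKM, with 0.212 and 0.495 FPKM in Ab-ASCs and PVASCs.

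**Figure D3:**
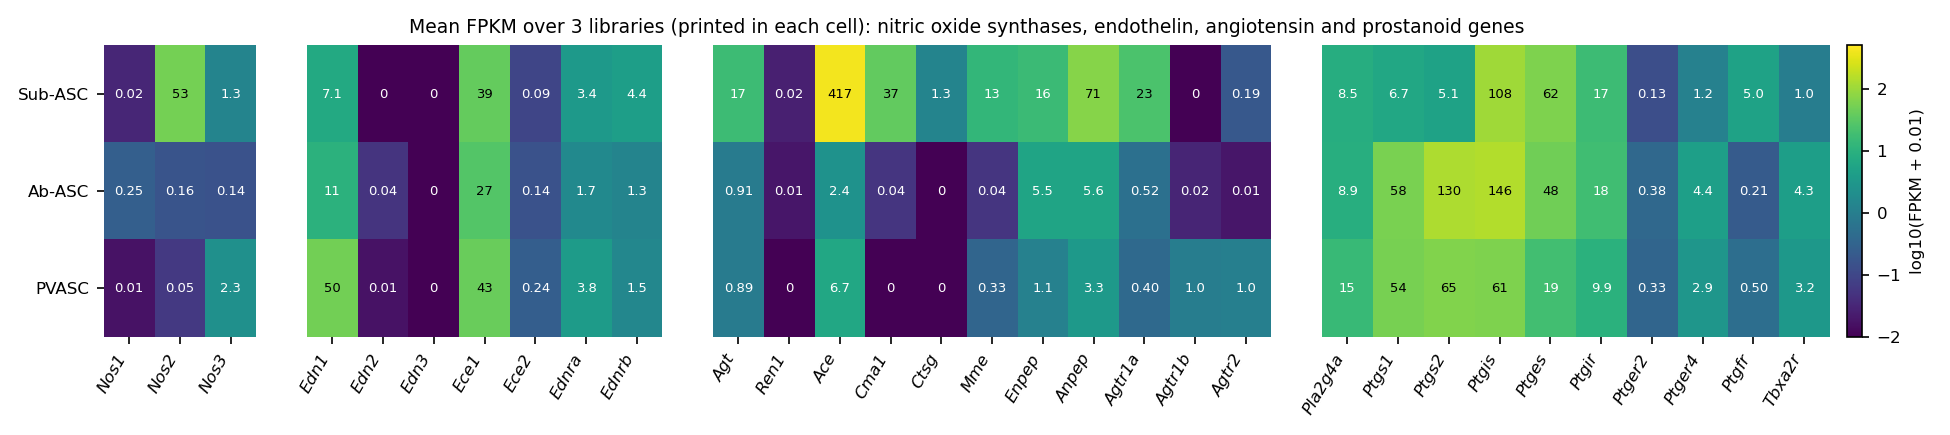
Mean FPKM over 3 libraries, on a color scale of log10(FPKM + 0.01), of the 10 genes and of related ligands, receptors, enzymes and paralogs in Sub-ASCs, Ab-ASCs and PVASCs, with the mean written in each cell. Ace and Nos2 are bright in Sub-ASCs, Ptgs2 and Ptgs1 in Ab-ASCs and PVASCs, and Ptgis and Ece1 in all 3 groups.

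Other vasoactive peptides were compared as a wider frame, from a list of 28 genes of which 21 were tested. In PVASCs 7 were higher and 7 lower against Sub-ASCs, and 11 were higher and 8 lower when set against Ab-ASCs. In the comparison of Ab-ASCs to Sub-ASCs 8 were higher and 8 lower. The shares of tested genes called were 66.7%, 90.5% and 76.2%, beside 70.4%, 56.9% and 75.3% of all genes. Adm, which encodes the relaxing peptide adrenomedullin and was chosen after its values were seen, was at 228 FPKM in Sub-ASCs, 25.6 FPKM in Ab-ASCs and 79.6 FPKM in PVASCs. Its receptor is Calcrl joined to Ramp2 or Ramp3, and these partners peaked in different groups. Ramp2 was at 8.19, 0.795 and 3.25 FPKM and Ramp3 at 0.617, 3.90 and 15.4 FPKM in Sub-ASCs, Ab-ASCs and PVASCs. In PVASCs against Sub-ASCs the log2 fold change was 4.63 (SE 0.15, edgeR adjusted p = 3.17e-11) for Ramp3.

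The bradykinin receptors Bdkrb1 and Bdkrb2 were highest in Ab-ASCs, at 25.4 and 25.6 FPKM, where Ace, which degrades bradykinin, was lowest. They were at 1.56 and 1.08 FPKM in Sub-ASCs, where Ace was highest, and at 4.56 and 8.97 FPKM in PVASCs. For Ab-ASCs against Sub-ASCs the log2 fold changes were 4.01 (SE 0.11) for Bdkrb1 and 4.56 (SE 0.08) for Bdkrb2, and both passed the test. Npr1, the natriuretic peptide receptor that makes cyclic GMP, was highest in Sub-ASCs at 8.07 FPKM, and Npr3, which clears natriuretic peptides, was chosen after its values were seen and was highest in PVASCs at 6.27 FPKM against 0.356 FPKM in Sub-ASCs. Apln, which encodes the peptide apelin, was at 68.1 FPKM in Sub-ASCs, 10.4 FPKM in Ab-ASCs and 16.1 FPKM in PVASCs, whereas its receptor Aplnr was at most 0.185 FPKM in any group.

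Over all 5 lists, 92 genes of which 76 were tested, 60 were called in PVASCs set against Sub-ASCs, 61 when set against Ab-ASCs, and 59 in the remaining pair. These are 78.9%, 80.3% and 77.6% of the tested genes of the lists, where 70.4%, 56.9% and 75.3% of all genes tested were called. The median log2 fold changes were -0.12, -0.17 and 0.06, with calls in both directions in each comparison.

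**Figure D4:**
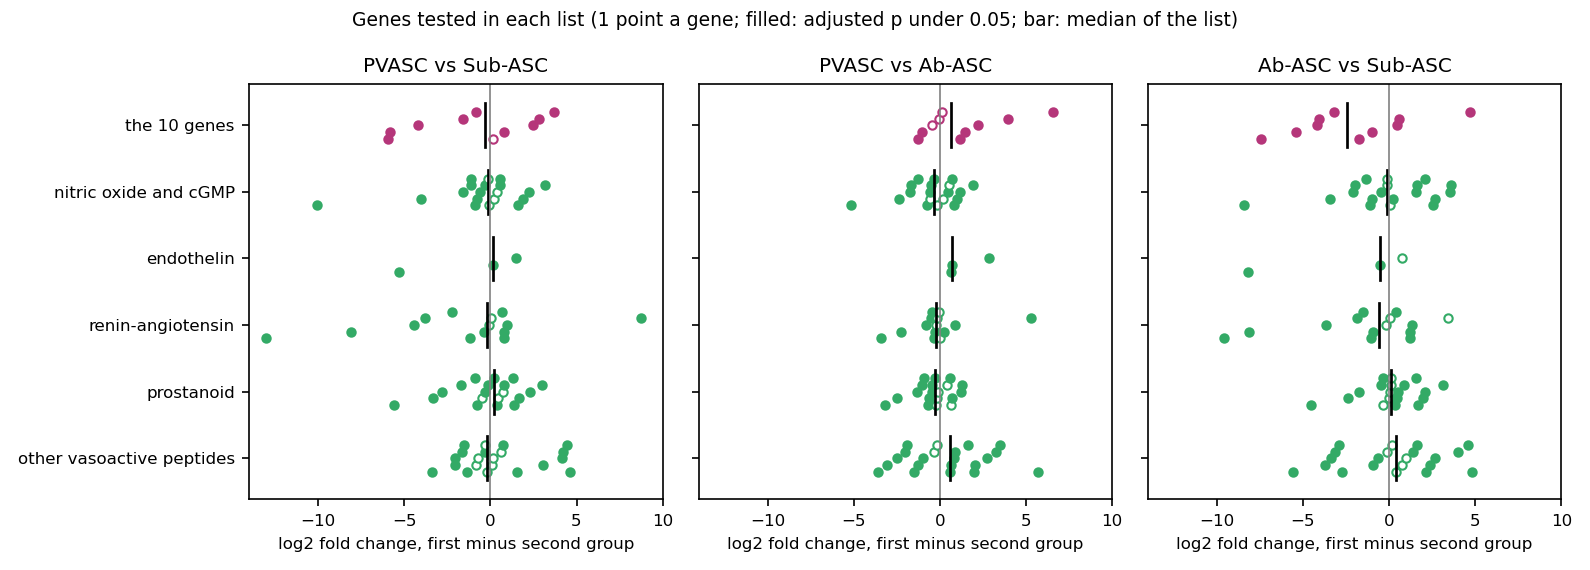
Log2 fold changes of the 10 genes and of the tested genes of 5 related lists in the 3 pairs of groups, with a point for each gene, filled where the adjusted p was under 0.05, and a bar at the median. Points lie on both sides of 0 in every list, save the 3 tested endothelin genes in PVASCs against Ab-ASCs, and values of the most extreme genes depend on the prior count because a group was at or near 0 reads.

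The genes whose pattern over the 9 libraries was most like each member are given as a description, by Pearson's correlation of log2 CPM. The points are 9 libraries in 3 tight groups, so the correlation mostly compares 3 means. Nos3 was most like Eps8 (0.995) and Cgnl1 (0.994), and Edn1 was most like Itga6 (0.998) and Jup (0.997). Ednra was nearest to Arrb1 and Cgnl1 (0.995 each), so Cgnl1 was shared by Nos3 and Ednra. Ednrb was nearest to Nat8f4 and Cntn1, Agt to Ripor3 and Efs, Agtr2 to Pgm2l1 and Tjp1, and Ptgis to Sphk1 and Syvn1. The closest likenesses were those of Ace with Cxcl12 and Xaf1, Agtr1a with Pon3 and Epas1, and Ptgs2 with Plcxd2 and Frmd4a. High correlations were common, since between 0.959% (Agtr2) and 11.9% (Ptgs2) of 13874 protein-coding genes exceeded a correlation of 0.95 with a member.

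**Figure D5:**
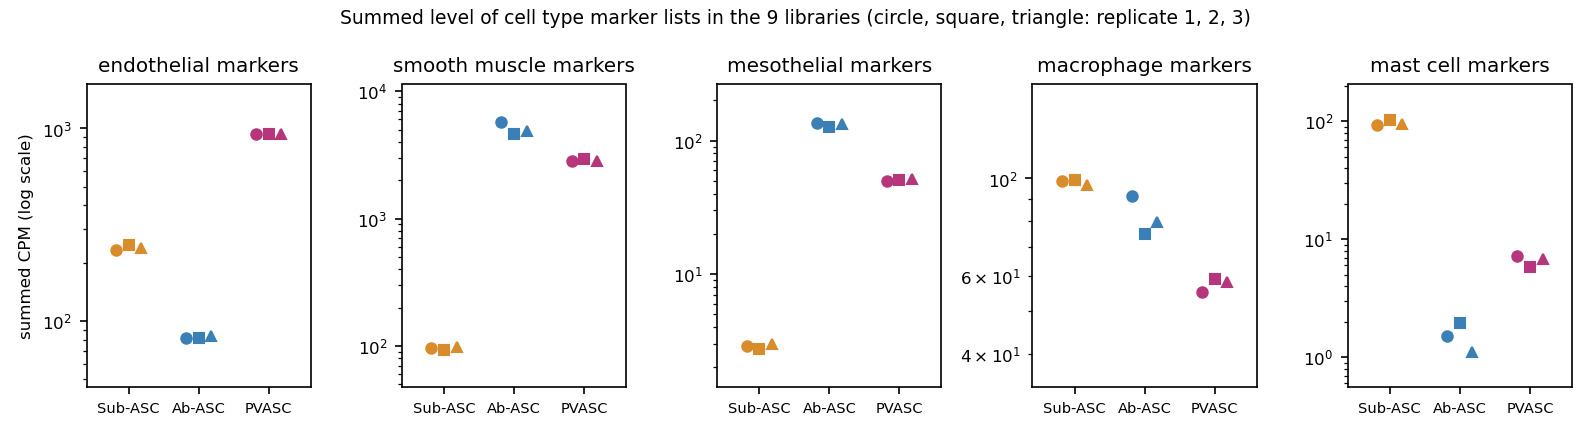
Summed CPM of endothelial, smooth muscle, mesothelial, macrophage and mast cell markers in each library of the 3 groups, on a log axis. Endothelial sums are highest in PVASCs at 931 to 935 CPM, smooth muscle and mesothelial sums in Ab-ASCs, and macrophage and mast cell sums in Sub-ASCs.

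Further marker lists remain beside those given above. Pericyte markers summed to 135 to 144 CPM in Sub-ASCs, 41.7 to 44.0 CPM in Ab-ASCs and 133 to 137 CPM in PVASCs. Their members differed in direction, since Abcc9 was highest in Sub-ASCs and Cspg4 lowest there. Macrophage markers summed to 96.8 to 99.2, 74.8 to 91.2 and 55.3 to 59.1 CPM in the same order of groups, and among them Csf1r was highest in Ab-ASCs. Their part in these results was not tested.

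Some of the 10 genes overlap others on the genome, and whether reads were counted by strand is not given in the sources used here, so reads of overlapping genes cannot be told apart. The overlapping genes had at most 48 reads in any library. Such counts are not small beside Nos3 in Ab-ASCs, with 10, 16 and 12 reads. The highest count in any library was 48 for Atg9b, whose end overlaps that of Nos3, and 7 for Gm15587 within Nos3. It was 38 for Gm47118 within Edn1, and 34 for Gm14291 and 3 for 1110018N20Rik, which overlap Ptgis. For 4933431K23Rik across Ednra it was 14, for Gm48161 within Agtr1a 9 and for Gm11651 across Ace 0.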

How the data were processed

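Bulk mRNA of cultured ASCs was sequenced by the study from 9 libraries, and groups were taken from the labels. The authors deposited raw counts per gene, not normalized, with gene length and position. Per the labels, CASAVA 1.8, Bowtie 0.12.2 and featureCounts 1.5.0-p3 were used and builds mm8 and mm10 are named, without roles. Gene positions in the table matched GENCODE M21 (GRCm38) for 98.3% of genes. Strandedness is not given in the sources used here. All 9 libraries entered 1 fit in edgeR 4.0.16 (R 4.3.3, filterByExpr, TMM, quasi-likelihood F-test without covariates), with Benjamini-Hochberg adjustment over 16526 genes and a threshold of 0.05. The procedure was tested on simulated data. CPM and FPKM were calculated here from the counts, TMM-scaled totals and listed lengths, and SDs are over 3 libraries. Ratios of few reads have 95% exact intervals. Reads are not independent molecules, so intervals and floors cover counting error only. Named were the 10 genes, up to 3 genes a direction, list and comparison by size of change, and their direct ligands, receptors, synthases and paralogs, of which some are not reported here. The members and lists were chosen with earlier results of these data known. Replicate numbers did not pair the libraries. Alternatives were DESeq2 1.42.0, RLE factors, other low-count filters, only the groups compared, leaving out each library, a replicate block and a minimum log2 fold change of 1. Promoter windows came from RefSeq GRCm38.p6 and were cut to the bases before the start.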

Additional observations from a re-analysis of the deposited data

How the results depend on the processing

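The counts of members called were 9 and 7 for PVASCs against Sub-ASCs and Ab-ASCs, 10 for the remaining pair and 10 for any difference. Leaving out each library in turn gave 9 to 10, 7 to 8, 10 to 10 and 10 to 10. For pathway genes it gave 55 to 63, 58 to 63 and 57 to 62. Requiring a log2 fold change of at least 1 left 39 and 32 pathway genes called in PVASCs against Sub-ASCs and Ab-ASCs, in place of 60 and 61. Agtr2 could not be tested with at least 10 reads in every library. Between PVASCs and Ab-ASCs, Agt (-0.04) turned to 0.0061 with at least 10 reads and 0.041 with only those groups, and ranged from -0.28 (without PVASC replicate 1) to 0.16 (without PVASC replicate 3) when a library was left out, with 0.14 without Ab-ASC replicate 3. It was never called, and the cause was not tested. Same-numbered libraries correlated from -0.0405 to 0.0723, which gave no sign of pairing. With 3 libraries a group, this cannot exclude a shared mouse or batch. With the replicate block the members called were 9, 7, 10 and 10 and the pathway genes 59, 60 and 59. DESeq2 called 9, 7, 10 and 10 members. Ednra passed the test between PVASCs and Sub-ASCs with RLE factors (adjusted p = 0.0391), only those groups (0.0348), without Ab-ASC replicate 1 (0.0445) and without Ab-ASC replicate 2 (0.0497). Depth limits Agtr2 in Ab-ASCs, where 2 reads were counted in all.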
